A study of Homo sapiens with 6 samples.

Results

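RAB GTPases are small proteins that switch between a GTP-bound and a GDP-bound state and mark membranes of the secretory and endocytic pathways. Each is anchored by prenyl groups at its C-terminus, is loaded with GTP by an exchange factor (GEF), is switched off by a GTPase-activating protein (GAP) and, while bound to GTP, recruits effectors such as motors and tethers that move, dock or fuse vesicles. In lung epithelium they serve, among others, surfactant secretion, junction assembly and receptor recycling. The genes described here are the protein-coding genes whose symbol in GENCODE release 29 is RAB, a number and at most 1 letter. The rule found 63 genes among the 58721 rows of the count table. Genes of RAB-interacting and GTPase-activating proteins were left out, as was RAB40AL, whose symbol carries 2 letters.

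The cells were A549, a long-established line from a human lung adenocarcinoma, and their poly(A) RNA was sequenced in 6 libraries. The 3 libraries called R98W came from cells overexpressing KAT8 R98W, and the 3 libraries called WT came from cells overexpressing wild-type KAT8. KAT8, also called MOF, is a lysine acetyltransferase of histone H4, and R98W is an amino acid substitution in it. Both lines grew in DMEM with serum. The vector, its promoter and whether the lines were clones or pools is not stated in the labels, and a line without overexpression was not analysed here. The labels are silent on whether each replicate was its own culture, and the p-values reflect differences among libraries that could be technical replicates.

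The libraries held 90007121 to 110152936 counts. KAT8 stood at 166, 196 and 236 CPM (read counts scaled to a common library size, on TMM-scaled totals) in the R98W libraries, and at 12.2, 195 and 184 CPM in the WT libraries, replicates 1 to 3 each. The library labelled WT replicate 1 therefore lacked the level of the other WT libraries, and results are also given without it. The epithelial genes KRT8, KRT18 and CDH1 were abundant in every library, with at least 4203, 2713 and 138 CPM, and were not called. The epithelial gene EPCAM was low, with 3.30 to 4.71 CPM in R98W libraries and 6.12 to 8.29 CPM in WT libraries. EPCAM was lower in R98W (log2 fold change -0.86, edgeR adjusted p = 0.000151). KRT19, also epithelial, averaged 54.7 CPM in R98W and 39.4 CPM in WT and was higher (0.48, edgeR adjusted p = 3.53e-05). The leukocyte gene CD3E had 0 counts in all 6 libraries. Of the melanocyte genes TYR had 0 counts throughout and MLANA 51 to 86 counts per library, while PMEL had 13, 66 and 24 counts in R98W and 130, 176 and 144 in WT and was lower in R98W (log2 fold change -2.07, edgeR adjusted p = 0.000285). Their part in the results below was not tested. The neuronal gene RBFOX3 stood at 30.9 to 34.6 CPM in R98W and 25.5 to 28.2 CPM in WT. In RNA from a culture, fewer cells of a type and less RNA per cell cannot be told apart.

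RAB genes changed in both directions, with every called member higher among the abundant genes and most called members lower among the scarce ones. Of the 63 genes, 60 passed the filter on low counts. Of these 60, 21 were higher and 15 lower in R98W by edgeR at an adjusted p of 0.05, which is 60.0% of them, against 34.8% of all 20713 tested genes and 43.3% of the tested protein-coding genes. Over all tested genes 16.2% were higher and 18.5% lower, and over the protein-coding ones 20.3% and 23.0%. In 41 of the 60 genes R98W and WT libraries did not overlap, against 45.6% of all tested genes and 53.8% of the protein-coding ones, and these 41 took in all 36 called members. The median log2 fold change of R98W over WT was 0.12 over the 60 RAB genes and -0.0047 over all tested genes. After a correction for expression level, these medians were 0.016 and 0.014. A fit without the library labelled WT replicate 1 gave 18 RAB rises and 14 RAB falls, with 33.6% of all tested genes called, and without R98W replicate 2, 13 were higher and 13 lower. A called member never changed direction in the 17 alternatives computed. Of these, the threshold of 0.01 keeps the fold changes of the main fit and could not reverse one. The others refit the same libraries, so they give no independent check.

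**Figure D1:**
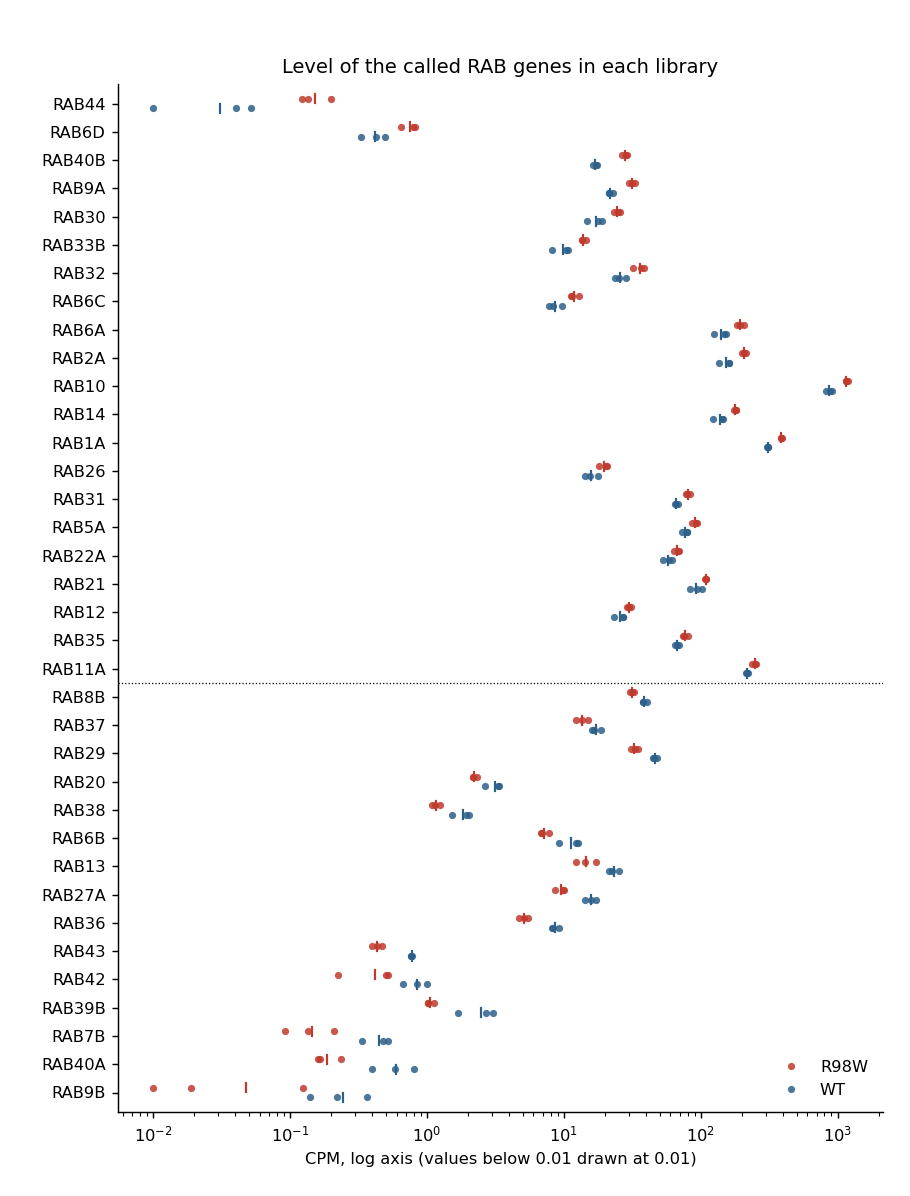
Level of each called RAB gene (rows) in CPM on a log axis, with 1 point per library, R98W in red above WT in blue, and a tick at the group mean. Genes above the dotted line were higher in R98W and those under it lower, and in all 36 the points of the groups do not overlap.

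The direction followed the level of the transcript, as it did over all tested genes. At 64 CPM and over, 10 of 17 RAB genes were higher and 0 lower in R98W, where all tested genes of that level were higher in 40.4% and lower in 9.41%. Between 8 and 64 CPM 9 RAB genes were higher and 6 lower of 25, against 21.2% and 24.8% of all tested genes. Between 1 and 8 CPM 0 were higher and 4 lower of 7, against 9.89% and 28.1%. Under 1 CPM 2 were higher and 5 lower of 11, against 2.44% and 10.7%. After a per-library correction for expression level, 16 RAB genes were higher and 14 lower, against 14.7% and 17.3% of all tested genes. Of the 36 calls, 29 remained. The part of this level trend in single results below was not tested, and calls that ended with the correction are named.

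**Figure D2:**
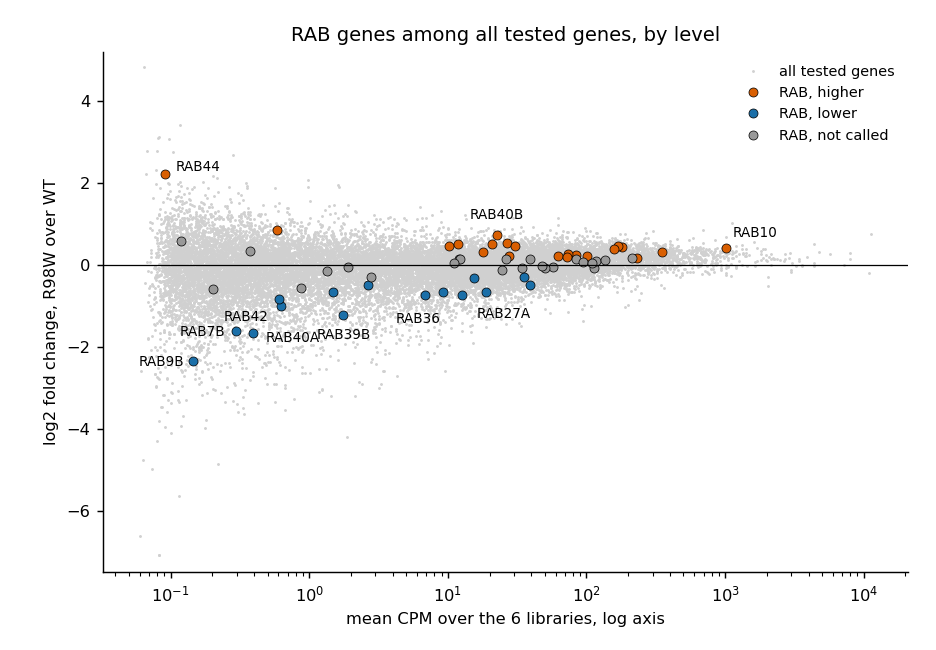
Log2 fold change of R98W over WT against mean CPM over the 6 libraries (log axis) for the 60 tested RAB genes, coloured by call, on all tested genes in grey. RAB genes at 64 CPM and over were higher or not called, and most called ones under 8 CPM were lower.

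RAB10 dominated the family. Per kilobase of annotated exon it stood at 319 ± 6.97 CPM per kb in R98W and 238 ± 12.6 CPM per kb in WT (SD, n = 3 each), ahead of RAB1A and RAB7A. RAB1A stood at 117 ± 1.39 CPM per kb in R98W and 93.2 ± 1.504 CPM per kb in WT, and RAB7A at 82.0 ± 4.19 CPM per kb in R98W and 73.5 ± 1.14 CPM per kb in WT. RAB11A, RAB14 and RAB6A followed at 43.5, 41.6 and 39.7 CPM per kb in R98W, with ranges over the R98W libraries that overlap between neighbours in this order. Summed over the 63 genes, the level was 1089, 1115 and 1080 CPM per kb in the 3 R98W libraries, against 945, 889 and 933 CPM per kb in the 3 WT libraries. The sum was thus 18.7% higher in R98W, without overlap between the groups. It was not corrected for the level trend, whose part in this difference was not tested. At 64 CPM and over, where RAB10 lies, 40.4% of all tested genes were higher and 9.41% lower. RAB10 made up 29.1% of the sum in R98W and 25.8% in WT, and the sum of the other members was 13.4% higher in R98W.

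The change with the smallest p among RAB genes was the rise of RAB40B (ENSG00000141542, chromosome 17, 82654973 to 82698728, hg38, minus strand). RAB40B carries a SOCS box, through which RAB40 proteins join a cullin 5 ubiquitin ligase. It had 28.6, 26.5 and 28.8 CPM in the 3 R98W libraries, against 17.4, 17.1 and 16.4 CPM in the 3 WT libraries. Every R98W library was above every WT library. The log2 fold change was 0.72 (edgeR adjusted p = 1.15e-06, SE 0.08). Its relative RAB40A was scarce and moved the other way, with 23, 16 and 17 counts in R98W replicates 1 to 3 and 58, 92 and 38 counts in WT replicates 1 to 3. The RAB40A log2 fold change was -1.67 (edgeR adjusted p = 0.00215, SE 0.38). RAB40A is 96.1% identical over 1030 bases to RAB40AL, so its reads are uncertain. RAB40C averaged 11.2 ± 1.13 CPM in R98W and 10.8 ± 0.65 CPM in WT (SD, n = 3 each) and was not called, with a log2 fold change of 0.06 (SE 0.10).

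The promoter windows of the rises and falls with the smallest p are shown so that the start regions of genes that moved apart can be read side by side: RAB40B and RAB9A among the higher members, RAB27A and RAB29 among the lower ones. They are RefSeq windows on GRCh38.p14 from 250 bases before to 50 bases after the annotated start, read 5′ to 3′ on the gene's strand (RAB40B, chr17:82698649-82698948, minus; RAB9A, chrX:13688878-13689177, plus; RAB27A, chr15:55319074-55319373, minus; RAB29, chr1:205775433-205775732, minus). Capitals mark matches on either strand to the 6 motifs searched, which were the cAMP response element TGACGTCA, the E-box CACGTG, the CCAAT box with the letters CCAAT, the GC box GGGCGG, the ETS site CCGGAAG and the TATA box TATAAA.
RAB40B: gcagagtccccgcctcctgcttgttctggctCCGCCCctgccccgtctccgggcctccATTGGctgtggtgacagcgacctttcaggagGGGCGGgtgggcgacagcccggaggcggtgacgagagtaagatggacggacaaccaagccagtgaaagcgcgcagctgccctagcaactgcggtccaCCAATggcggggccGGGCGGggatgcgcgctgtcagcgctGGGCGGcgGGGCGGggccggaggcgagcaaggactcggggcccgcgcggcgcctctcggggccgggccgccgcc
RAB9A: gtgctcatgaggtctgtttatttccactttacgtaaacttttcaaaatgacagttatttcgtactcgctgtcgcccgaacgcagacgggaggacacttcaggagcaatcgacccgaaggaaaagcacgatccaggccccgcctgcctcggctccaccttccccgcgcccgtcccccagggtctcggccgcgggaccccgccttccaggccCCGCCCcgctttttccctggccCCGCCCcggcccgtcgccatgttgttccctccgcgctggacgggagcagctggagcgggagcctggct
RAB27A: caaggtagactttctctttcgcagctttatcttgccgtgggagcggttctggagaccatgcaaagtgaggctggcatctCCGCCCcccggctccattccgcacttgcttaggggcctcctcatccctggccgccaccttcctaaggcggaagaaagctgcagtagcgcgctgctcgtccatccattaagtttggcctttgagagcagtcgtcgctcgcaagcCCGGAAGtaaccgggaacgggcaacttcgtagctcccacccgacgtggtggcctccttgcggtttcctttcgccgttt
RAB29: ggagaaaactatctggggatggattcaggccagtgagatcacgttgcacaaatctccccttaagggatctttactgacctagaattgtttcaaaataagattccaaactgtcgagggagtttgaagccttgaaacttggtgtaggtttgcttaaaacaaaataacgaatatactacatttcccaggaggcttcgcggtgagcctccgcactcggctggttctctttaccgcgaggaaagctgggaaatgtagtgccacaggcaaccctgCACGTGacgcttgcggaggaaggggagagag
RAB40B held 7 matches, to the CCAAT box and the GC box, and RAB9A held 2, both to the GC box. RAB27A had an ETS site and a GC box, and RAB29 had an E-box. Of the 63 genes 50 had a RefSeq window. The E-box was in 3 of 15 windows of higher members, 1 of 10 of lower members and 9.85% of the windows of tested genes. The GC box was in 12 windows of higher members, 7 of lower members and 67.3% of those of tested genes, and the CCAAT box in 2 of higher members, 2 of lower members and 36.0% of those of tested genes. The ETS site was in 3 windows of higher members, 1 of lower members and 17.4% of those of tested genes, and the TATA box in 2 of higher members, 2 of lower members and 6.16% of those of tested genes. Over all 27305 RefSeq windows the shares were 7.43% for the E-box, 44.6% for the GC box, 35.7% for the CCAAT box, 10.7% for the ETS site, 11.95% for the TATA box and 1.98% for the cAMP response element, and no motif overlaps another. The cAMP response element was in 0 windows of called members and in 3.05% of those of tested genes. The median ratio of observed to expected CpG was 0.92 in the higher, 0.71 in the lower and 0.81 in the uncalled members with a window, against 0.82 over tested genes. A match is a description of the letters, and whether A549 cells start transcription at these positions was not tested.

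Among the RAB genes of the endoplasmic reticulum (ER) and of transport from it to the Golgi, RAB2A and RAB1A rose, RAB43 fell, and RAB1B, RAB2B and RAB18 were not called. RAB2A, which acts between the ER and the Golgi, had 213, 208 and 199 CPM in the 3 R98W libraries, against 159.7, 136 and 159.7 CPM in the 3 WT libraries. The R98W libraries were all above the WT libraries, with a log2 fold change of 0.45 (edgeR adjusted p = 7.98e-05, SE 0.07). RAB1A, which drives ER-to-Golgi transport, averaged 387 ± 4.601 CPM in R98W and 309 ± 4.98 CPM in WT (SD, n = 3 each), a log2 fold change of 0.32 (edgeR adjusted p = 0.000349, SE 0.06), or 0.15 (adjusted p = 0.0489) after the level correction. RAB1A shares 22.9% of its exon bases with CEP68 on the other strand, which was not called. RAB43 had 46, 42 and 42 counts in R98W replicates 1 to 3 and 78, 88 and 73 in WT replicates 1 to 3, a log2 fold change of -0.83 (edgeR adjusted p = 0.0249, SE 0.28). The RAB43 groups did not overlap, but 79.3% of its exon bases also belong to the read-through gene ISY1-RAB43. A processed pseudogene, RAB43P1, matches RAB43 at 99.8% over 582 bases, so the RAB43 reads are uncertain. The RAB43 call ended with the level correction, at a log2 fold change of -0.71 and an edgeR adjusted p of 0.0569, and without R98W replicate 2 or 3 or WT replicate 2 or 3, at 0.0588, 0.073, 0.0505 and 0.059. RAB1B averaged 55.8 CPM in R98W and 58.3 CPM in WT, and RAB2B 23.5 CPM in R98W and 25.6 CPM in WT. RAB18, which acts at the ER and lipid droplets, averaged 122 CPM in R98W and 113 CPM in WT.

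Of 12 tested Golgi RAB genes 5 were higher and 4 lower, where 20.3% of tested protein-coding genes were higher and 23.0% lower, with a median log2 fold change of 0.20. RAB6A, of transport within and out of the Golgi, had 195, 205 and 183 CPM in the 3 R98W libraries, against 147, 126 and 152 CPM in the 3 WT libraries. Its relative RAB6B, a form enriched in brain, had 7.78, 6.82 and 6.95 CPM in R98W against 9.29, 12.2 and 12.6 CPM in WT. Neither pair of groups overlapped, and the log2 fold changes were 0.46 for RAB6A (edgeR adjusted p = 9.81e-05, SE 0.08) and -0.66 for RAB6B (edgeR adjusted p = 0.000246, SE 0.12). RAB6B overlaps SRPRB on the other strand in 6.3% of its exon bases, and SRPRB was higher, with a log2 fold change of 0.30. RAB6C and RAB6D, near-identical relatives of RAB6A, were also higher, at 0.47 and 0.86. RAB6C stood at 11.3, 12.9 and 11.5 CPM in R98W and 8.38, 7.74 and 9.72 CPM in WT. RAB6D had 63, 76 and 87 counts in R98W and 42, 38 and 47 counts in WT. Transcripts of RAB6C and RAB6A are 93.9% identical over 3103 bases and those of RAB6C and RAB6D 97.2% over 3062 bases, so the split of reads among them is uncertain. The RAB6D call ended without the library labelled WT replicate 1, at an edgeR adjusted p of 0.0557, and without WT replicate 2 or R98W replicate 2 or 3, at 0.112, 0.0803 and 0.0954.

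RAB30 and RAB33B rose as well. RAB30, needed for Golgi integrity, had 24.7, 25.6 and 23.1 CPM in R98W and 19.0, 14.8 and 17.7 CPM in WT. RAB33B, which binds the autophagy protein ATG16L1, had 13.7, 14.5 and 13.6 CPM in R98W and 10.3, 8.24 and 10.8 CPM in WT. In both genes the R98W libraries lay above the WT libraries, each with a log2 fold change of 0.51 (edgeR adjusted p = 0.000249 and 0.00092). RAB29, RAB36 and RAB39B fell. RAB29 (chromosome 1, 205767986 to 205775460), a partner of the Parkinson disease kinase LRRK2, had 34.5, 33.1 and 30.7 CPM in R98W, against 44.7, 47.6 and 45.4 CPM in WT. RAB36, which binds the lysosome-positioning effector RILP, had 5.13, 5.52 and 4.70 CPM in R98W and 8.37, 8.13 and 9.25 CPM in WT. The log2 fold changes were -0.49 for RAB29 (edgeR adjusted p = 3.54e-05, SE 0.07) and -0.75 for RAB36 (edgeR adjusted p = 5.13e-05, SE 0.11), again without overlap. RAB39B (chromosome X), a gene of X-linked intellectual disability, had 1.12, 1.01 and 1.02 CPM in R98W and 1.69, 3.03 and 2.69 CPM in WT. It showed a log2 fold change of -1.23 (edgeR adjusted p = 0.00016, SE 0.21), with WT libraries that spread more widely than the R98W libraries. RAB39A averaged 1.86 CPM in R98W and 1.92 CPM in WT, RAB33A 0.142 CPM in R98W and 0.0966 CPM in WT, and RAB41 0.162 CPM in R98W and 0.243 CPM in WT, and none of them was called. RAB19 did not pass the filter, with 0 counts in every R98W library and 0, 3 and 8 in WT replicates 1 to 3.

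**Figure D3:**
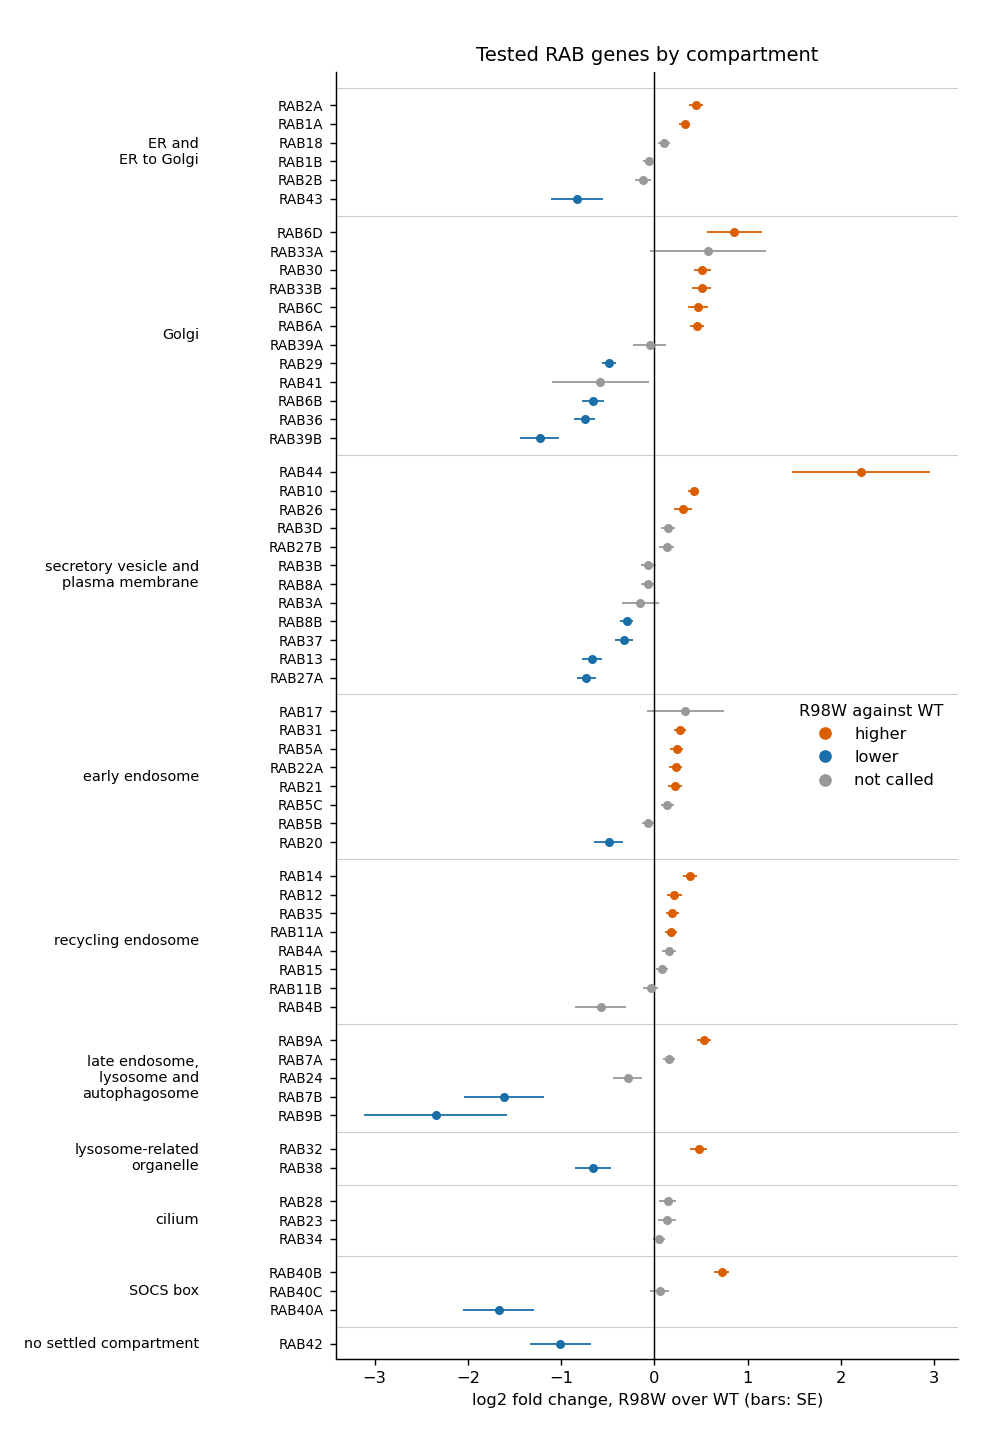
Log2 fold change of R98W over WT with its SE for the 60 tested RAB genes, grouped by the compartment each is best known for and coloured by call. Most compartments hold both higher and lower members, while the recycling endosome has 0 lower and the cilium 0 called members.

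Of the 12 tested RAB genes of secretory vesicles and the plasma membrane, 3 were higher and 4 lower (58.3% called, against 43.3% of tested protein-coding genes), with a median of -0.07. RAB10, which acts in exocytosis and in glucose transporter insertion, had 1145, 1187 and 1142 CPM in the 3 R98W libraries, against 904, 815 and 876 CPM in the 3 WT libraries. No WT library reached the R98W level, and the log2 fold change was 0.42 (edgeR adjusted p = 3.53e-05, SE 0.06), or 0.21 (adjusted p = 0.00755) after the level correction. RAB27A (ENSG00000069974, chromosome 15, 55202966 to 55319113), which docks secretory granules and melanosomes, had 10.0, 9.88 and 8.64 CPM in R98W, against 14.2, 15.9 and 17.2 CPM in WT. RAB13, of tight junction assembly, had 17.3, 12.2 and 14.2 CPM in R98W and 21.5, 25.4 and 22.5 CPM in WT. Both fell without overlap, with log2 fold changes of -0.73 (edgeR adjusted p = 1.53e-05, SE 0.10) and -0.67 (edgeR adjusted p = 8.76e-05, SE 0.11). PIGB, which shares 2.7% of the RAB27A exon bases on the other strand, was also lower, at -0.45. RAB8B, of transport to the plasma membrane, fell by 0.30, whereas its close relative RAB8A averaged 33.4 ± 2.73 CPM in R98W and 35.1 ± 1.01 CPM in WT (SD, n = 3 each) and was not called.

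RAB26 and RAB37, related genes of regulated granule release, moved apart, with log2 fold changes of 0.31 and -0.32 (edgeR adjusted p = 0.0148 and 0.0122). RAB26 averaged 19.7 ± 1.38 CPM in R98W and 15.9 ± 1.78 CPM in WT, and RAB37 averaged 13.7 ± 1.41 CPM in R98W and 17.1 ± 1.27 CPM in WT (SD, n = 3 each). The RAB26 call ended without R98W replicate 1 or 2 or WT replicate 2 or 3, at edgeR adjusted p of 0.0645, 0.0624, 0.0752 and 0.0735, and the RAB37 call without R98W replicate 3, at 0.076, or with the GC correction, at 0.0574. RAB44, a large RAB studied in mast cells and osteoclasts, had 12, 13 and 21 counts in R98W and 4, 6 and 0 counts in WT. The fitted log2 fold change was 2.22 (edgeR adjusted p = 0.0253, SE 0.74), without overlap, but the call ended without the library labelled WT replicate 1, WT replicate 3 or R98W replicate 2 or 3, at adjusted p of 0.0584, 0.117, 0.0625 and 0.119. RAB27B, at 19.0 CPM per kb in R98W against 1.70 CPM per kb for RAB27A, averaged 142 ± 7.90 CPM in R98W and 129 ± 16.7 CPM in WT (SD, n = 3 each). It was not called. The RAB3 genes of regulated exocytosis were also not called: RAB3B averaged 49.1 CPM in R98W and 51.3 CPM in WT, RAB3D 27.4 CPM in R98W and 24.8 CPM in WT, and RAB3A 1.28 CPM in R98W and 1.42 CPM in WT. RAB3D was called higher with the GC correction, at 0.22 (edgeR adjusted p = 0.0174). RAB3C did not pass the filter, with 1 count in R98W replicate 1, 1 in WT replicate 1 and 0 elsewhere.

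Of the 8 RAB genes of the early endosome, 4 were higher by small amounts and 1 was lower, where 20.3% of tested protein-coding genes were higher and 23.0% lower. RAB31, RAB5A, RAB22A and RAB21 had log2 fold changes of 0.28, 0.24, 0.23 and 0.22. RAB5A, the main organiser of early endosome fusion, averaged 90.7 ± 4.20 CPM in R98W and 76.9 ± 3.76 CPM in WT, and RAB31, of transport between the trans-Golgi and endosomes, 80.4 ± 3.23 CPM in R98W and 66.3 ± 2.17 CPM in WT (SD, n = 3 each). RAB21, which traffics integrins, averaged 108 CPM in R98W and 92.9 CPM in WT, and RAB22A 67.5 CPM in R98W and 57.7 CPM in WT. RAB20, found on phagosomes, fell. It averaged 2.22 ± 0.07 CPM in R98W libraries and 3.12 ± 0.39 CPM in WT libraries (SD, n = 3 each), a log2 fold change of -0.49 (edgeR adjusted p = 0.0183). After the level correction RAB31 was the remaining call among the 4 rises, and RAB5B was called lower, at -0.18 (adjusted p = 0.0366). The adjusted p was then 0.0742 for RAB5A, 0.0701 for RAB22A, 0.19 for RAB21 and 0.0774 for RAB20, and RAB21 also lost its call with the GC correction, at 0.0837. RAB5A also lost its call without R98W replicate 2, at 0.0583. RAB21, RAB22A and RAB20 lost theirs without R98W replicate 1 (0.0695, 0.0848 and 0.0535), R98W replicate 2 (0.0747, 0.0729 and 0.0574), WT replicate 2 (0.118, 0.0959 and 0.0505) or WT replicate 3 (0.0695, 0.0549 and 0.0783). RAB5B averaged 111 CPM in R98W and 116 CPM in WT, and RAB5C 88.0 CPM in R98W and 79.9 CPM in WT. RAB17 averaged 0.42 CPM in R98W and 0.332 CPM in WT. None of these was called in the fit without corrections. RAB5C was called higher with the GC correction, at 0.24 (edgeR adjusted p = 0.0127), and with the exon length correction, at 0.18 (edgeR adjusted p = 0.047).

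Of 8 tested RAB genes of the recycling endosome, 4 were higher and 0 lower, where 20.3% of tested protein-coding genes were higher and 23.0% lower. After the level correction 2 were higher, where 14.7% of all tested genes were. RAB14, of traffic between the Golgi and endosomes, averaged 179 ± 3.80 CPM in R98W and 137 ± 12.5 CPM in WT (SD, n = 3 each), a log2 fold change of 0.38 (edgeR adjusted p = 0.000327, SE 0.07), or 0.25 (adjusted p = 0.00684) after the level correction. RAB12, RAB35 and RAB11A rose by 0.21, 0.19 and 0.18 on the log2 scale. RAB11A, the central RAB of the recycling endosome, averaged 247 ± 8.85 CPM in R98W and 218 ± 3.65 CPM in WT, and after the level correction its log2 fold change was 0.022 (adjusted p = 0.817). RAB35, which returns receptors to the plasma membrane, averaged 76.8 ± 3.47 CPM in R98W and 67.1 ± 2.54 CPM in WT, and its call also ended with that correction, at 0.167. The RAB12 call stood at an edgeR adjusted p of 0.0485 and ended without R98W replicates 1 to 3, at 0.104, 0.153 and 0.0632, or WT replicate 2 or 3, at 0.246 and 0.0703. It also ended with the GC correction (0.0592), the stricter filter on counts (0.0558), no filter (0.0616) and upper quartile scaling (0.0628). The RAB35 call ended without R98W replicate 1 or 3 (0.0595 and 0.109) or WT replicate 2 or 3 (0.0507 and 0.152). The RAB11A call ended without R98W replicate 1 or 2 (0.099 and 0.14) or without the libraries labelled WT replicates 1 to 3 in turn (0.0654, 0.0591 and 0.0795), and with the GC correction (0.0776) or no filter (0.0567). RAB4A averaged 41.5 CPM in R98W and 37.3 CPM in WT, and RAB15 97.7 CPM in R98W and 92.5 CPM in WT. RAB11B averaged 46.9 CPM in R98W and 48.2 CPM in WT, and RAB4B 0.696 CPM in R98W and 1.04 CPM in WT. None of these 4 was called in the fit of all 6 libraries without corrections. RAB15 was called higher with the GC correction, at 0.17 (edgeR adjusted p = 0.039), and RAB4A with the exon length correction, at 0.20 (edgeR adjusted p = 0.0463). RAB4B was called lower without R98W replicate 3, at -0.85 (edgeR adjusted p = 0.0396). RAB25, an epithelial relative of RAB11A, did not pass the filter, with 0, 5 and 0 counts in R98W replicates 1 to 3 and 4, 1 and 0 in WT replicates 1 to 3.

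In the late endosome and lysosome, RAB9A rose while RAB9B and RAB7B fell. RAB9A (ENSG00000123595, chromosome X, 13689125 to 13710506), which returns mannose 6-phosphate receptors to the Golgi, had 31.5, 33.3 and 29.8 CPM in R98W, against 22.7, 21.4 and 21.4 CPM in WT. Its log2 fold change was 0.53 (edgeR adjusted p = 2.97e-05, SE 0.08), with the R98W libraries clear of the WT libraries. RAB9B had 0, 12 and 2 counts in R98W and 14, 42 and 21 in WT, and RAB7B, of endosome-to-Golgi transport, had 9, 13 and 22 counts in R98W and 52, 55 and 32 in WT. Both groups were separate at these low counts, with edgeR adjusted p of 0.0225 and 0.00662 and log2 fold changes of -2.34 (SE 0.77) and -1.61 (SE 0.43). The RAB9B call ended without R98W replicate 1 or 3 or WT replicate 2 or 3, at 0.0781, 0.103, 0.113 and 0.0592. Without R98W replicate 2, which held 12 of the R98W counts, its fitted log2 fold change was -4.48 (adjusted p = 0.00246). RAB7A, the main RAB of late endosomes and lysosomes, averaged 223 ± 11.4 CPM in R98W and 199.8 ± 3.10 CPM in WT (SD, n = 3 each), a log2 fold change of 0.16 (edgeR adjusted p = 0.0628, SE 0.06), which missed the threshold although the groups did not overlap. RAB7A was called higher by DESeq2, at 0.0349, and after the corrections for GC content and exon length. RAB24, a RAB of autophagy, averaged 2.52 CPM in R98W and 3.07 CPM in WT and was not called, and 44.8% of its exon bases belong also to MXD3 on the same strand.

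RAB32 and RAB38, which act together in the biogenesis of melanosomes and other lysosome-related organelles, moved apart. RAB32 had 36.5, 31.9 and 38.8 CPM in R98W and 25.1, 28.3 and 23.7 CPM in WT. RAB38 had 1.14, 1.08 and 1.251 CPM in R98W and 1.54, 1.92 and 2.02 CPM in WT. Neither gene's groups overlapped, with log2 fold changes of 0.47 (edgeR adjusted p = 0.000293, SE 0.09) and -0.66 (edgeR adjusted p = 0.0122, SE 0.19). Without WT replicate 3 the RAB38 call ended, at 0.0603. The ciliary genes RAB23, RAB28 and RAB34 averaged 12.7, 12.8 and 111 CPM in R98W and 11.5, 11.6 and 107 CPM in WT, and none of them was called. With the GC correction RAB34 was called higher, at 0.15 (edgeR adjusted p = 0.0389). RAB23 shares 57.7% of its exon bases with BAG2 on the other strand, which was higher, at a log2 fold change of 0.56. RAB42, which has no settled compartment, had 22, 49 and 55 counts in R98W and 100, 97 and 64 in WT, a log2 fold change of -1.01 (edgeR adjusted p = 0.0209, SE 0.32). A processed pseudogene, RAB42P1, matches it at 98.4% over 316 bases, so its reads are uncertain. The RAB42 call ended without the library labelled WT replicate 1, at 0.077, and without R98W replicate 1, at 0.1.

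Separate calls do not compare close relatives, so the balance within paralog groups was compared directly as the share of each gene in the summed level per kilobase of its group. These levels were not corrected for the level trend, and its part in the shares was not tested. In every pair whose shares did not overlap between R98W and WT, the member with the larger share held more in R98W. Of the 18 groups with at least 2 tested members, 15 held members with differing calls and 5 held a higher and a lower member (the groups of RAB6, RAB9, RAB26 and RAB37, RAB32 and RAB38, and RAB40). The RAB22A and RAB31 pair was the 1 group whose members were all called the same way. Over all 60 tested RAB genes 21 were higher, 15 lower and 24 not called. Whether close relatives differ in call more often than unrelated members was not tested. Of 27 shares tested, 21 did not overlap between the groups. Single gene levels did not overlap in 45.6% of all tested genes, but that is no background for shares. Shares within a group also depend on each other. Each of the 21 shares had an exact two-sided permutation p of 0.1, the smallest that 3 against 3 libraries allow. Adjusted over the 27 shares it was 0.129, so none could pass a threshold of 0.05.

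RAB40B held 62.5%, 63.6% and 60.9% of the RAB40 level in the 3 R98W libraries, against 49.4%, 51.2% and 49.7% in the 3 WT libraries. RAB39B held 22.9% ± 1.59 of the RAB39 level in R98W and 39.7% ± 9.07 in WT (SD, n = 3 each). RAB26 held 74.6% ± 0.95 of its pair with RAB37 in R98W and 65.3% ± 3.71 in WT. R98W minus WT was thus 12.2 percentage points for RAB40B, -16.8 for RAB39B and 9.28 for RAB26, without overlap between the groups. RAB27A held 8.17% ± 0.37 of the RAB27 level in R98W, against 14.1% ± 2.14 in WT. In the abundant ER pair RAB1A held 80.7% ± 0.47 in R98W and 76.2% ± 0.76 in WT, and RAB2A held 84.9% ± 0.39 of its own pair in R98W and 79.1% ± 1.83 in WT. RAB38 held 2.63% ± 0.11 in R98W and 5.60% ± 0.91 in WT, so RAB32 made up nearly all of that pair in both groups. By contrast RAB31 held 66.4% ± 0.79 in R98W and 65.7% ± 1.48 in WT, with overlapping groups and an exact permutation p of 0.6.

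**Figure D4:**
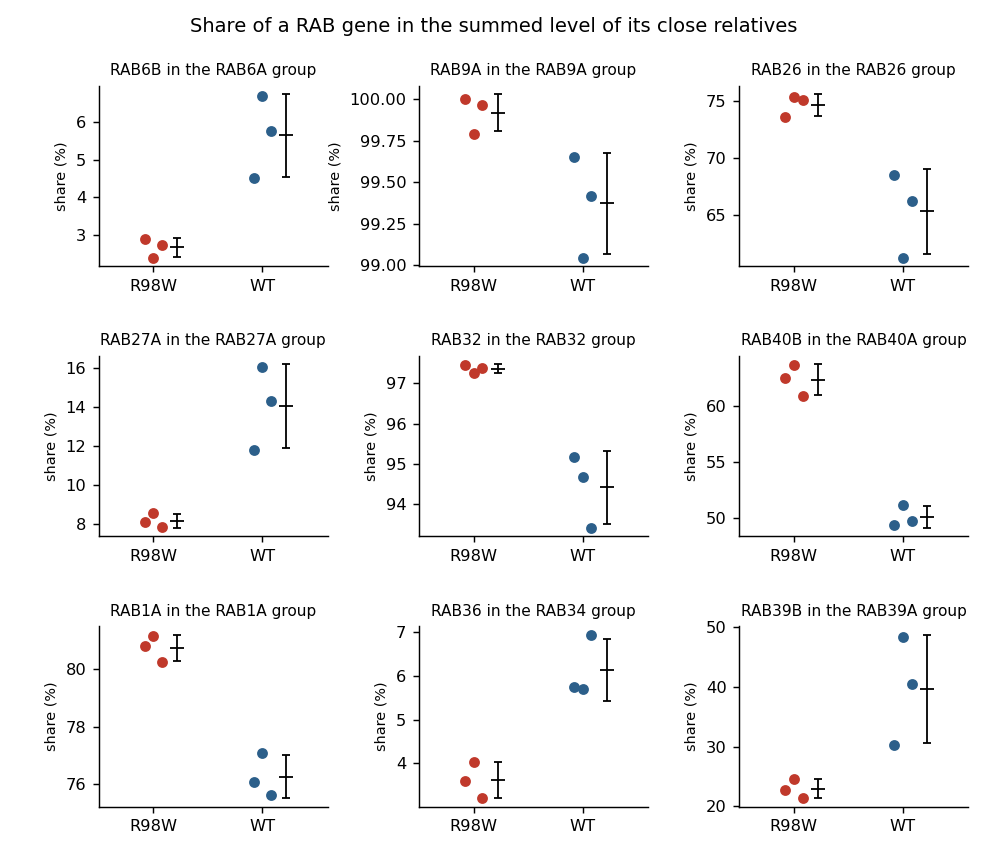
Share of 9 RAB genes in the summed CPM per kb of their close relatives (percent, axes not from 0), with 1 point per library and the mean and SD (n = 3) beside them, R98W left and WT right. Only shares that did not overlap between the groups are drawn, so in each panel the 3 R98W libraries lie clear of the 3 WT libraries. Overlapping shares, such as that of RAB31, are left out.

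The called members differed in level and less in exon length. Higher members had a median of 62.6 CPM and 4274 exon bases, lower members 2.67 CPM and 3882 exon bases, and uncalled members 30.2 CPM and 3468 exon bases, against 6.96 CPM and 3792 exon bases over all tested genes. Their median absolute log2 fold change was 0.42 in the higher and 0.73 in the lower members.

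The genes that run the RAB cycle were followed with lists of exchange factors, GAPs, prenylation factors and effectors, 151 symbols in all, of which 149 were tested. Of these 27 were higher and 36 lower in R98W, or 42.3% called, close to the 43.3% of all tested protein-coding genes, with a median log2 fold change of -0.04. A fit without the library labelled WT replicate 1 gave 23 rises and 35 falls, with 33.6% of all tested genes called. Of the 8 genes for prenylation and membrane extraction 3 were higher and 1 lower. GDI2, a GDP dissociation inhibitor that keeps RAB proteins soluble, averaged 523 ± 15.5 CPM in R98W and 409.8 ± 7.43 CPM in WT (SD, n = 3 each), a log2 fold change of 0.35 (edgeR adjusted p = 0.000172, SE 0.06), or 0.17 (adjusted p = 0.0274) after the level correction. RABGGTB, the catalytic subunit of the prenylating enzyme, rose by 0.38, while RABAC1, an acceptor of prenylated RAB proteins, had a log2 fold change of -0.57 (edgeR adjusted p = 9.38e-05).

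Of 51 exchange factors 8 were higher and 15 lower (45.1% called, against 43.3% of tested protein-coding genes), with a median of -0.06. DENND1C, of a family that activates RAB35, averaged 1.94 ± 0.19 CPM in R98W and 4.77 ± 0.25 CPM in WT (SD, n = 3 each), a log2 fold change of -1.30 (edgeR adjusted p = 1.46e-06). RGP1, a subunit of the exchange factor for RAB6A, averaged 32.7 ± 2.02 CPM in R98W and 49.8 ± 3.98 CPM in WT. TRAPPC1, of the complex that activates RAB1, had -0.46, and RIN2, which activates RAB5, rose by 0.36. Of 39 GAPs 4 were higher and 8 lower (30.8% called), with a median of -0.05. TBC1D4, a GAP for RAB10 known from glucose transporter traffic, averaged 87.1 ± 3.18 CPM in R98W and 49.0 ± 4.42 CPM in WT, a log2 fold change of 0.83 (edgeR adjusted p = 8.41e-08, SE 0.07). It was the rise with the smallest p in these lists, whereas EVI5L, TBC1D19 and TBC1D2B fell, with log2 fold changes of -1.13, -0.96 and -0.53.

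Of 48 effectors and tethers 10 were higher and 12 lower (45.8% called, against 43.3% of tested protein-coding genes), with a median of -0.03. After the level correction 6 were higher and 12 lower, against 14.7% and 17.3% of all tested genes. VPS39 and VPS41, subunits of the tether that RAB7 engages on lysosomes, averaged 40.1 ± 1.63 and 57.2 ± 2.54 CPM in R98W, against 57.6 ± 4.84 and 82.4 ± 7.22 CPM in WT (SD, n = 3 each), with log2 fold changes of -0.52 and -0.53. RAB11FIP4, a RAB11 effector, and RILPL2, a protein that binds phosphorylated RAB8 and RAB10, had -0.99 and -0.82. LRRK2, the kinase that phosphorylates RAB10 and several other RAB proteins, averaged 75.1 ± 6.55 CPM in R98W and 53.2 ± 3.20 CPM in WT, a log2 fold change of 0.50 (edgeR adjusted p = 3.94e-05, SE 0.07). PPM1H, the phosphatase that reverses this, rose by 0.21 (edgeR adjusted p = 0.0235), but its call ended with the level correction, at 0.0767, and without R98W replicate 2 or 3 or WT replicate 3, at 0.0966, 0.0669 and 0.164. LRRK1 was not called.

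**Figure D5:**
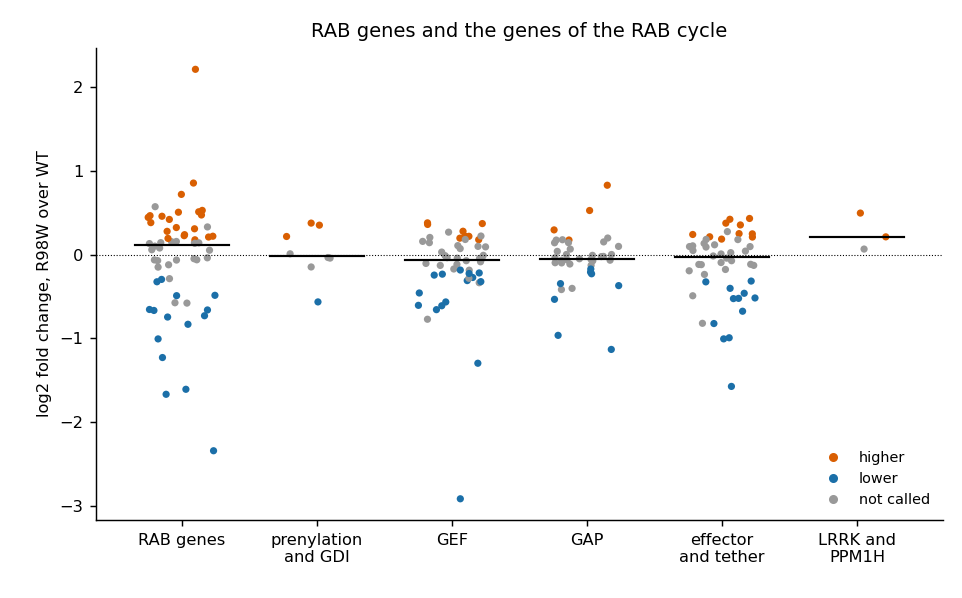
Log2 fold change of R98W over WT for the tested RAB genes and for each list of genes of the RAB cycle, with 1 point per gene coloured by call, spread sideways at random, and the median as a line. Without a level correction the RAB median lies at 0.12, and those of exchange factors (GEF), GAPs and effectors lie between -0.06 and -0.03.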

How the data were processed

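Poly(A) RNA of A549 cells was measured in 3 R98W and 3 WT libraries, grouped and numbered by their titles. The values deposited were unnormalised whole-number counts for each gene. Tools listed in the submitters' processing notes are HTSeq 0.11.3, HISAT2 2.1.0 and CASAVA 1.8, with build hg38. Neither the annotation nor the strand setting used in counting is stated there, so reads of overlapping genes on opposite strands cannot be told apart. All 58721 rows matched GENCODE release 29.

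The test was that of edgeR 4.0.16 under R 4.3.3 (quasi-likelihood test, TMM scaling, filterByExpr with a minimum count of 10 and a minimum total of 15), with Benjamini-Hochberg adjustment over 20713 genes and a threshold of 0.05. The fit took in the whole table. CPM used the TMM-scaled totals, and levels per kilobase used the exon bases of GENCODE. The fit was tested on simulated data. Paralog shares were compared with an exact permutation test over libraries. RAB transcripts were aligned to each other to find near-identical copies, and promoter windows came from RefSeq (GRCh38.p14).

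The members, compartments and gene lists were chosen with earlier results of these data known, and RAB6D was added to the compartment and paralog lists after the table was read. Called members are named with their log2 fold change. The 12 with the smallest p, and others with an absolute log2 fold change of at least 0.5, have their level in every library. In each list of the RAB cycle the 4 called genes with the smallest p are named, except for 1 gene that is not reported here. Alternatives were DESeq2 1.42.0, its size factors, upper quartile scaling, limma-voom 3.58.1, other filters, corrections for expression level, GC content and exon length, a replicate block, a threshold of 0.01 and leaving out each library.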

Additional observations from a re-analysis of the deposited data

How the results depend on the processing

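The 21 higher and 15 lower RAB calls were 22 and 15 with DESeq2, 21 and 15 with limma-voom and 19 and 15 without a filter. Leaving out each library in turn left 13 to 18 higher and 11 to 14 lower, and a threshold of 0.01 left 13 higher and 9 lower. Of the 36 called members, 21 kept their call in every alternative that tested them, other than the stricter threshold. The correlations of same-numbered deviations were 0.00564, -0.0392 and -0.0369, and 1 of 6 libraries correlated best with its own number. The labels do not say whether the numbers mark a shared day or batch, which these correlations cannot settle. With the replicate number as a block, 18 were higher and 15 lower, without RAB11A, RAB12 and RAB35.

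No called member changed direction. Among uncalled members, the log2 fold change turned to 0.028 for RAB1B, 0.0039 for RAB8A and 0.047 for RAB11B with the GC correction, and to 0.0080 for RAB11B with the exon length correction. With the level correction it turned to -0.018 for RAB15, -0.011 for RAB18, -0.054 for RAB34 and 0.076 for RAB39A. Leaving out each library in turn, it ranged from -0.101 to 0.0513 for RAB11B, from -0.174 to 0.64 for RAB17, from -0.146 to 0.0402 for RAB39A and from -0.0093 to 0.133 for RAB40C. The cause was not tested. KAT8 had a log2 fold change of 0.61 (edgeR adjusted p = 0.362), or 0.063 (0.687) without the library labelled WT replicate 1, and was called higher without a filter (0.61, 6.72e-16) and with the block (1.22, 0.000788). Depth limits RAB genes under 1 CPM, which rest on few counts.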
